A study of Homo sapiens with 6 samples.

Results

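Cytokines, growth factors and their receptors were examined in PANC-1, a line of human pancreatic ductal carcinoma cells, by their gene symbols. The symbol rule covers chemokines, interleukins, BMP, TGF-beta, inhibin and GDF ligands, FGF, EGF-type, VEGF, PDGF, IGF and TNF family ligands, their receptors and binding proteins, and single genes such as KITLG, and leaves out GDF15 and FGF21. It matched 20 of the 995 genes in the deposited table. Among protein-coding genes of GENCODE 29, 309 symbols match the same rule. Libraries of poly(A)-selected RNA were made from 3 control and 3 shSTYK1 cultures, described as biological replicates. The shSTYK1 cells carry a lentiviral shRNA against STYK1, a receptor-like kinase, in a pLKO.1 vector and were grown as a stable line under drug selection. For such lines the study describes expanding isolated clones of resistant cells, and whether the sequenced cells came from clones is not stated. Which shRNA the sequenced cells carried, and which vector the control cells carried, is not stated in the sources used here. A response to the vector, differences between isolated clones and the loss of STYK1 therefore cannot be told apart. The question the comparison addresses is which genes change when STYK1 is depleted.

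The table gives each gene a z-score in each library (the gene has mean 0 and SD 1 over the 6 libraries). The study describes a list of genes past a p-value threshold between these groups, of the same size as the table, and the table is read here as that list. Which test gave those p-values, and whether they were adjusted, is not stated. Expression values with 2 decimals were recovered from these scores (the search is described with the processing), and all 20 genes of the set were solved. The scores fix a gene's value + 1 only up to a whole-number factor and a power. The log2 fold changes of value + 1 do not depend on the factor but do depend on the power. They, the levels, the ratios of means and the filter therefore rest on the smallest solution. The unit before the logarithm is unknown, so levels are compared within a gene and not between genes. Sequencing depth is unknown, so no interval or detection limit rests on counts. STYK1 itself is not among the 995 genes, and its knockdown was not checked here. If the table is the study's list, STYK1 did not pass that threshold or was not tested. Of 24 marker symbols of epithelial, fibroblast, endothelial and leukocyte cells, 3 are in the table, so the labelled cell type could not be checked against its defining markers. In bulk RNA, fewer cells of a type and less RNA per cell cannot be told apart.

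As background, these proteins act between cells: a secreted or membrane-bound ligand binds a receptor on the same or a neighbouring cell. BMPs and activins signal through serine/threonine kinase receptors and SMAD proteins, FGFs, IGFs, stem cell factor and CSF1 through receptor tyrosine kinases, most interleukin receptors through JAK and STAT proteins, and TNF family receptors through TRAF adaptors. In pancreatic carcinoma such factors are known to pass between tumour cells, fibroblasts and myeloid cells.

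Of the 20 genes, 13 (65.0%) had a lower and 7 a higher mean z-score in shSTYK1 than in control cells, where 50.2% of all genes in the table had a lower one. In 18 of them every shSTYK1 library lay on 1 side of all control libraries, against 93.7% of all genes in the table, so this count says nothing particular about the set. The filter on low values, at least 1 in 3 or more libraries, was passed by 15 of the 20 genes, and BMP5 and FGFR2 passed it through the control libraries alone, so that the filter itself required a difference in them. In limma, with Benjamini-Hochberg adjustment over all 740 genes tested, 14 of these 15 passed an adjusted p-value of 0.05, against 95.7% of all genes tested. Lower expression was called in 9 of the 15 genes, against 44.5% of all genes tested, and higher expression in 5, against 51.2%. The 9 genes include BMP5 and FGFR2, which the filter admitted through the control libraries alone. The median log2 fold change was -0.89 in the 15 genes and 0.55 in all genes tested. Because the genes of the table were thus selected on these libraries, the p-values describe the separation of the groups and are not independent evidence of it. With 3 libraries against 3, the smallest p that the exact two-sided permutation test allows for 1 gene is 0.1, which 18 of the 20 genes reached.

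The TGF-beta superfamily is the largest family of the set, with 6 genes. Its ligands BMP4, BMP5 and INHBB fell and the co-receptor TGFBR3 rose, while the receptor BMPR1B and the ligand INHBE had low values. GDF15, a ligand of this superfamily that the rule leaves out, is also in the table. It rose with a log2 fold change of 1.43 (limma, adjusted p = 0.000196). INHBB (ENSG00000163083; GRCh38, chr2:120346143-120351808, plus strand) encodes the beta B subunit of activins and inhibins. Its recovered value was 19.77, 21.92 and 18.12 in the control libraries and 3.41, 3.06 and 3.64 in the shSTYK1 libraries. Every shSTYK1 library lay far below every control library, and the spread inside each group was small. The mean of 19.9 ± 1.91 (SD, n = 3) in control cells fell to 3.37 ± 0.292 (SD, n = 3), and this is a log2 fold change of -2.26 (standard error, SE, 0.128 and adjusted p = 6.17e-06 by limma).

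BMP5 (ENSG00000112175; GRCh38, chr6:55753645-55875564, minus strand) and BMP4 (ENSG00000125378; GRCh38, chr14:53949736-53958761, minus strand) encode secreted bone morphogenetic proteins. BMP5 was at 3.58, 3.45 and 4.13 in control libraries and at 0.37, 0.18 and 0.30 in shSTYK1 libraries, a 13.1-fold lower mean. Its log2 fold change was -1.88 (SE 0.126 by limma), and -3.35 with a pseudocount of 0.1, which compresses the change of a low gene less. No p-value is given for BMP5, which passed the filter through the control libraries alone. BMP4 was at 17.35, 16.71 and 12.73 in control libraries and at 6.53, 5.32 and 4.18 in shSTYK1 libraries. The third control library of BMP4 lay below the other control libraries but well above every shSTYK1 library. Its log2 fold change was -1.39 (SE 0.182 and adjusted p = 0.000205 by limma).

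BMPR1B (ENSG00000138696; GRCh38, chr4:94757968-95158448, plus strand), which encodes a type I receptor that binds BMP ligands, was below the filter in all libraries. It was listed at 0.15, 0.24 and 0.27 in the control libraries and at 0, 0.01 and 0 in the shSTYK1 libraries, so 2 BMP ligands and this BMP receptor all had lower values after STYK1 depletion. When all 994 solved genes were fitted with no filter, the log2 fold change of BMPR1B was -0.28 (limma, adjusted p = 0.0231).

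TGFBR3 (ENSG00000069702; GRCh38, chr1:91680343-91906335, minus strand) encodes betaglycan, a co-receptor that presents TGF-beta ligands and also binds inhibins. Its value was 1.57, 2.32 and 2.53 in control libraries and 3.94, 3.41 and 4.28 in shSTYK1 libraries, without overlap. The log2 fold change was 0.64 (SE 0.158 and adjusted p = 0.00446 by limma), and with the libraries scaled by the median of ratios it was 0.35 (limma, adjusted p = 0.0642). INHBE (ENSG00000139269; GRCh38, chr12:57452323-57459280, plus strand), the activin beta E subunit, was at 0.22, 0.25 and 0.04 in control libraries and at 0.27, 0.87 and 0.51 in shSTYK1 libraries. The lowest shSTYK1 library of INHBE barely exceeded the highest control library, and with no filter its adjusted p was 0.0509 in limma.

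**Figure D1:**
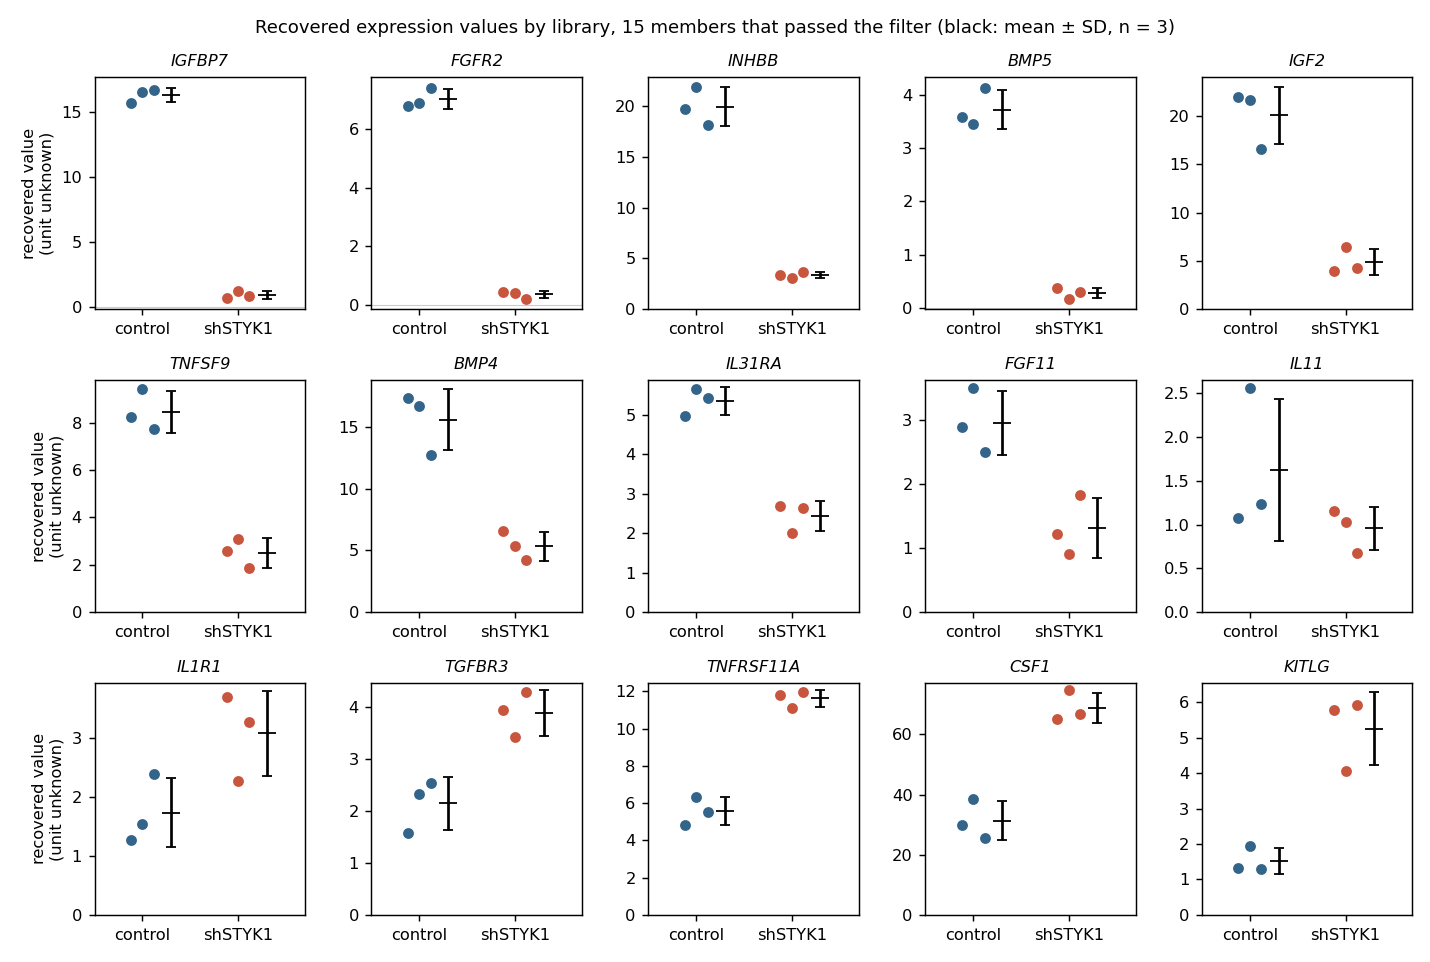
Recovered expression values (vertical axis, unit unknown, starting at or just below 0) of the 15 genes that passed the filter, with a point per library and the mean ± SD (n = 3) in black. The first 9 panels fall without overlap of the groups, IL11 and IL1R1 overlap, and the last 4 panels rise without overlap.

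All 3 FGF family genes of the table had lower values in shSTYK1 cells, and FGFR2 (ENSG00000066468; GRCh38, chr10:121478334-121598458, minus strand), a receptor tyrosine kinase for FGFs, had the larger change of both that were tested. FGFR2 was at 6.79, 6.90 and 7.42 in control libraries and at 0.44, 0.41 and 0.21 in shSTYK1 libraries. The control libraries lay close together, and the shSTYK1 mean was 19.9-fold lower. The log2 fold change was -2.57 (SE 0.125 by limma), and over the 6 fits that each omit 1 library it ranged from -2.62 to -2.50. With a pseudocount of 0.1 it was -4.02. No p-value is given for FGFR2, which passed the filter through the control libraries alone. The gene-level value does not separate the splice forms of the receptor.

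FGF5 (ENSG00000138675; GRCh38, chr4:80266599-80336680, plus strand), a secreted ligand of FGF receptors, was listed at 0.64, 1.06 and 0.85 in control libraries and at 0.11, 0.06 and 0.12 in shSTYK1 libraries. It missed the filter because a single library exceeded 1, and with no filter its log2 fold change was -0.75 (limma, adjusted p = 0.000808). FGF11 (ENSG00000161958; GRCh38, chr17:7438273-7444937, plus strand) belongs to the FGF homologous factors, which stay inside the cell and bind sodium channels in place of FGF receptors. It was at 2.89, 3.50 and 2.50 in control libraries and at 1.22, 0.91 and 1.83 in shSTYK1 libraries, a smaller change than that of FGFR2. Its log2 fold change was -0.78 (SE 0.178 and adjusted p = 0.00303 by limma).

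Both IGF system genes of the table fell. IGFBP7 (ENSG00000163453; GRCh38, chr4:57030773-57110385, minus strand), a secreted IGF-binding protein related protein of the matrix, had the largest fall among the 15 tested genes on the log2(value + 1) scale, where it was the 8th largest of all 740 genes tested. By the ratio of means FGFR2 changed more, and with a pseudocount of 0.1 both were at -4.02. It was at 15.65, 16.54 and 16.68 in control libraries and at 0.71, 1.24 and 0.85 in shSTYK1 libraries. The control libraries differed by a coefficient of variation of 3.43%, the lowest of the 15 genes. The mean of 16.3 ± 0.559 (SD, n = 3) in control cells fell to 0.933 ± 0.275 (SD, n = 3), a 17.5-fold lower level and a log2 fold change of -3.17 (SE 0.138 and adjusted p = 2.89e-06 by limma). IGFBP7 overlaps POLR2B and IGFBP7-AS1 on the opposite strand, and whether the authors counted by strand is not stated.

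IGF2 (ENSG00000167244; GRCh38, chr11:2129112-2149603, minus strand), a fetal growth factor expressed from the paternal allele in most tissues, was at 21.96, 21.63 and 16.64 in control libraries. In shSTYK1 libraries it was at 3.93, 6.47 and 4.22, so its highest shSTYK1 library was still well below its lowest control library. The log2 fold change was -1.86 (SE 0.194 and adjusted p = 8.35e-05 by limma). A second annotated IGF2 gene and the read-through INS-IGF2 cover the same bases on the same strand, so the value is uncertain to the extent that reads were divided among them. INSR, which encodes the insulin receptor that can also bind IGF2, was at 0.65, 0.64 and 1.63 in control libraries and at 1.41, 1.21 and 1.74 in shSTYK1 libraries, with overlapping groups and an adjusted p of 0.135 in limma.

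The 2 ligands of type III receptor tyrosine kinases in the set rose. CSF1 (ENSG00000184371; GRCh38, chr1:109910242-109930992, plus strand) encodes macrophage colony-stimulating factor, which maintains macrophages. Its value was 29.86, 38.64 and 25.67 in control libraries and 65.22, 74.65 and 66.80 in shSTYK1 libraries. The log2 fold change was 1.13 (SE 0.167 and adjusted p = 0.000376 by limma), and it was 0.73 with median-of-ratios scaling (limma, adjusted p = 0.00142). KITLG (ENSG00000049130; GRCh38, chr12:88492793-88580851, minus strand) encodes stem cell factor, the ligand of KIT on mast cells, melanocytes and germ cells. Among the 15 tested genes KITLG had the largest log2(value + 1) fold change upward, from 1.31, 1.95 and 1.30 in control libraries to 5.77, 4.06 and 5.92 in shSTYK1 libraries. Its log2 fold change was 1.31 (SE 0.173 and adjusted p = 0.000217 by limma). Neither CSF1R nor KIT is among the 995 genes. Absence from the table, here and below, does not show that a gene is not expressed. The genes of the table are read as selected for a difference between the groups.

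In the TNF superfamily a ligand fell and a receptor rose. TNFSF9 (ENSG00000125657; GRCh38, chr19:6530999-6535928, plus strand) encodes 4-1BB ligand, a costimulator of T cells. It was at 8.22, 9.42 and 7.71 in control libraries and at 2.59, 3.10 and 1.84 in shSTYK1 libraries, a log2 fold change of -1.44 (SE 0.165 and adjusted p = 0.000119 by limma). TNFRSF11A (ENSG00000141655; GRCh38, chr18:62325287-62391292, plus strand) encodes RANK, the receptor that drives osteoclast formation. Its value of 4.83, 6.35 and 5.50 in control libraries rose to 11.80, 11.10 and 11.97 in shSTYK1 libraries, which varied least of all 15 genes in that group. Its log2 fold change was 0.95 (SE 0.131 and adjusted p = 0.000261 by limma). The levels of the 2 genes thus moved in opposite directions in the same libraries.

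Of the 5 interleukin-type genes, 4 encode receptor chains and IL11 is the only ligand. IL31RA (ENSG00000164509; GRCh38, chr5:55851379-55922853, plus strand), the IL-31 receptor chain that pairs with the oncostatin M receptor, was at 4.97, 5.65 and 5.44 in control libraries and at 2.69, 2.00 and 2.64 in shSTYK1 libraries. Its log2 fold change of -0.89 (SE 0.133 and adjusted p = 0.000389 by limma) kept its direction and its call in each alternative fit that tested it. IL31RA did not reach the minimum absolute log2 fold change of 1. IL1R1 (ENSG00000115594; GRCh38, chr2:102064544-102179874, plus strand), the signalling receptor of IL-1, was at 1.27, 1.54 and 2.39 in control libraries and at 3.69, 2.28 and 3.27 in shSTYK1 libraries. The third control library exceeded the second shSTYK1 library, so the groups overlapped and the exact permutation p was 0.2 (two-sided). The log2 fold change of IL1R1 was 0.58 (SE 0.198 and adjusted p = 0.0208 by limma). Its adjusted p in limma was 0.0755 without the first control library, 0.0628 without the second, 0.0725 without the first shSTYK1 library and 0.0622 without the third. With median-of-ratios scaling the log2 fold change was 0.30 (limma, adjusted p = 0.191), so the call for IL1R1 rests on single libraries and on the scaling.

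IL1RL1 (ENSG00000115602; GRCh38, chr2:102311502-102352037, plus strand), the receptor of IL-33, lies downstream of IL1R1 in the same receptor cluster and had lower values where IL1R1 had higher ones. It was listed at 0.45, 0.45 and 0.62 in control libraries and at 0, 0.24 and 0.03 in shSTYK1 libraries, below the filter and without overlap. With no filter its log2 fold change was -0.47 (limma, adjusted p = 0.00783), and IL18R1 overlaps it on the same strand. IL2RG (ENSG00000147168; GRCh38, chrX:71107404-71112108, minus strand), the common gamma chain of several interleukin receptors, was at 0.08, 0.10 and 0.22 in control libraries and at 0.60, 0.48 and 1.20 in shSTYK1 libraries. Its recovered solution had to be multiplied by 2 so that no value fell below 0, and with no filter its log2 fold change was 0.62 (limma, adjusted p = 0.00913).

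IL11 (ENSG00000095752; GRCh38, chr19:55364389-55370463, minus strand), a cytokine of the IL-6 family, was at 1.08, 2.56 and 1.24 in control libraries and at 1.16, 1.03 and 0.68 in shSTYK1 libraries. The second control library stood apart from the other 5, which overlapped. The log2 fold change was -0.39 with a 95% interval from -0.90 to 0.12 (limma, adjusted p = 0.117), and without the second control library it was -0.15 (limma, adjusted p = 0.350). With median-of-ratios scaling the value was -0.60 (limma, adjusted p = 0.0166). IL11 was the only one of the 15 tested genes that did not pass the threshold.

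Promoter windows of RefSeq (GRCh38.p14), from 250 bases before to 50 bases after a transcript start, were found for 15 of the 20 genes, in 30 windows. They were searched on both strands for an interferon response core (GAAA, any 2 bases, GAAA), the AP-1 motif TGANTCA, an NF-kB motif (GGGAN followed by TTTCC) and the TCF/LEF motifs CTTTGAA and CTTTGAT. No window of the set held the NF-kB motif or a TCF/LEF motif, which are in 0.558%, 4.43% and 2.62% of all 35116 windows. The interferon core was in the TNFSF9 window and in 3.57% of all windows. The AP-1 motif was in a window of FGF11, IL11 and IL1RL1 and in 7.71% of all windows, and in FGF11 it overlaps the transcript start. The 250 bases before the start are printed, 5′ to 3′ on the gene's strand, for the 3 genes whose match lies before it, with the match in capitals. These are TNFSF9 (chr19:6530776-6531025, plus strand, match at -194 to -185 from the start), IL1RL1 (chr2:102337007-102337256, plus strand, match at -191 to -185, at a transcript start inside the annotated gene) and IL11 (chr19:55370464-55370713, minus strand, match at -96 to -90).
TNFSF9: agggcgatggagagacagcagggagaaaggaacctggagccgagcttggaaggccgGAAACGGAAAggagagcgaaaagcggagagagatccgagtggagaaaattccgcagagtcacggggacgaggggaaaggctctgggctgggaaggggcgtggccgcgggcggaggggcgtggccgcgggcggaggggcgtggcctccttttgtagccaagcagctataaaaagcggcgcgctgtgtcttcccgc
IL1RL1: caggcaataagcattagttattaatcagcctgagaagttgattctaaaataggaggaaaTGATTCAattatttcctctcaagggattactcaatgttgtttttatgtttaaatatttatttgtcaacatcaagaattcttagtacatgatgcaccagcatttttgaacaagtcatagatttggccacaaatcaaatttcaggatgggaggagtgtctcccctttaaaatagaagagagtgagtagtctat
IL11: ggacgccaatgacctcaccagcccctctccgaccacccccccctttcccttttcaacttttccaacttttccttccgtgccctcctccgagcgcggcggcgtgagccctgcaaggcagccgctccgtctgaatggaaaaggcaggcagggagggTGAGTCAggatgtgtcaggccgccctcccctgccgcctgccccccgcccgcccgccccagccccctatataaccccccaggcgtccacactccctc
The TNFSF9 window belongs to a gene that fell, the IL1RL1 window to a gene with low values in both groups, and the IL11 window to the tested gene without a call. A match describes these letters only, and binding of a factor was not measured.

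**Figure D2:**
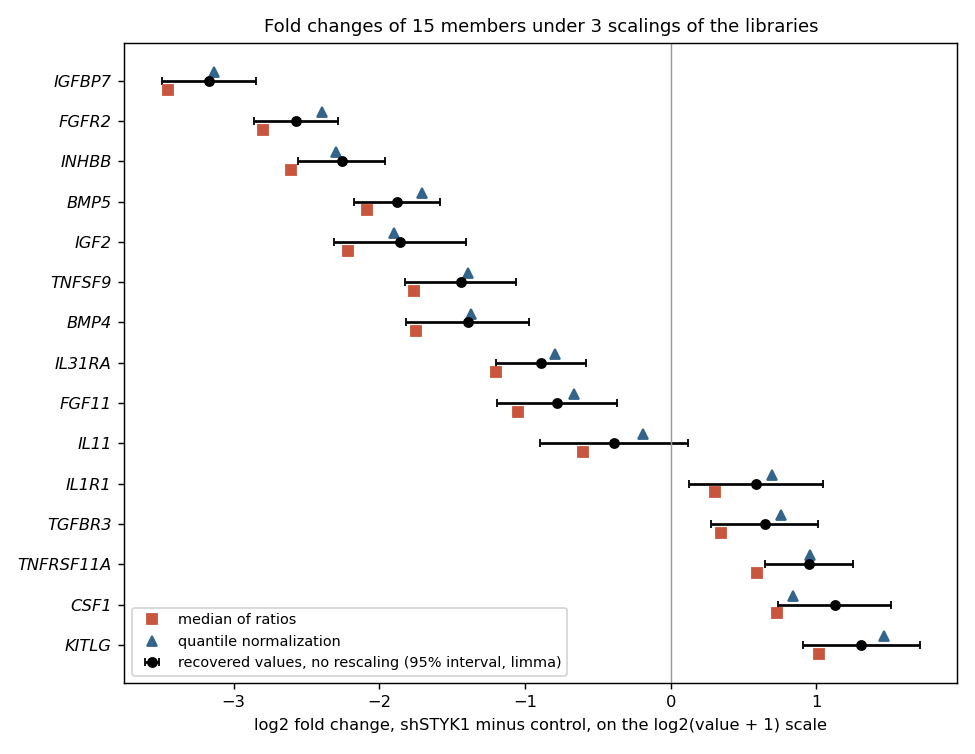
Log2 fold changes (horizontal axis, shSTYK1 minus control on the log2(value + 1) scale) of the 15 genes that passed the filter, with 95% intervals from limma in black, with median-of-ratios scaling (squares) and after quantile normalization (triangles). Every gene keeps its side of 0 under both rescalings, from IGFBP7 at -3.17 to KITLG at 1.31.

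The scaling of the libraries bears on the rising genes. The recovered values of all 994 solved genes sum to between 9481 and 10545 in the control libraries and to between 14288 and 14790 in the shSTYK1 libraries. Rescaling by the median of ratios shifted the log2 fold change of all genes tested by a median of -0.29, and quantile normalization by 0.11. The median-of-ratios factors were computed from genes of this table, which are read as selected for a difference between the groups. That method takes most genes as unchanged, so the factors need not reflect the scale of the libraries. With the median of ratios, 10 of the 15 genes were called lower, against 45.0% of all genes tested, and 3 higher (CSF1, KITLG and TNFRSF11A), against 44.2%, because IL11 gained the call and IL1R1 and TGFBR3 lost it. Whether the sums differ because of the selected genes or because of the libraries was not tested.

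Receptors and ligands that textbook pairing assigns to 17 of the 20 genes gave 33 symbols to look up, and 3 of these are in the table. These are BMPR1B, FGFR2 and INSR, described above. Of 202 further pathway symbols, 15 are in the table. Of the 49 genes of the TGF-beta, BMP and activin pathway, 2 passed the filter and both were called lower, where 44.5% of all genes tested were. LTBP2, a latent TGF-beta binding protein family member of the matrix, had a log2 fold change of -1.41 (limma, adjusted p = 0.000394), and FSTL1, a secreted follistatin-like glycoprotein, of -0.61 (limma, adjusted p = 0.0118). SMAD9, a BMP-responsive SMAD, was below the filter at 0.46, 0.57 and 0.41 in control libraries and at 1.14, 0.86 and 1.37 in shSTYK1 libraries.

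Of 50 genes of receptor tyrosine kinases and MAPK feedback, 8 are in the table and 6 were tested, with 2 called lower, 2 called higher and a median log2 fold change of -0.05, against 44.5%, 51.2% and a median of 0.55 in all genes tested. Of the 4 called genes, NRP2, IRS4 and BTC stayed below 1 in every library of 1 group and so passed the filter through the other group alone, and no p-value is given for them. NRP2, a co-receptor for VEGF and semaphorins, was at 8.28, 8.31 and 7.44 in control libraries and at 0.82, 0.74 and 0.56 in shSTYK1 libraries. IRS4, an insulin receptor substrate, was at 1.19, 1.31 and 1.19 in control libraries and listed at 0 in every shSTYK1 library. BTC, the EGF receptor ligand betacellulin, was at 0.09, 0.37 and 0.08 in control libraries and at 2.23, 1.44 and 1.62 in shSTYK1 libraries, so NRP2 and IRS4 were lower and BTC higher after STYK1 depletion. ETV5, a transcription factor downstream of FGF and MAPK signalling, rose with a log2 fold change of 0.88 (limma, adjusted p = 0.000288) in the libraries in which FGFR2 fell. DUSP4, another gene of this list, had lower values. It was below the filter, at 0.12, 0.36 and 0.17 in control libraries and at 0.03, 0.03 and 0.01 in shSTYK1 libraries.

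Of 39 TNF receptor and NF-kB genes, 3 were tested, with 1 called lower, 2 called higher and a median log2 fold change of 0.89, beside the same shares and median over all genes tested as above. CD40, a TNF family receptor, rose with a log2 fold change of 0.96 (limma, adjusted p = 0.000323), as did its adaptor family member TRAF5 with 0.89 (limma, adjusted p = 0.000465). CD70, a TNF family ligand, fell. Of 16 other chemokine genes only CX3CL1, a membrane-anchored chemokine, is in the table. It was at 3.24, 4.48 and 3.44 in control libraries and at 0.97, 0.91 and 0.99 in shSTYK1 libraries, and it too passed the filter through the control libraries alone. None of the 48 cytokine receptor and JAK-STAT symbols is in it, nor is a gene that the symbol rule names as a CXC or CC chemokine or chemokine receptor.

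Among markers of other cell types, COL1A1, a fibroblast collagen, moved with the falling growth factor genes. Its value ranged from 22.24 to 42.24 in control libraries and from 2.94 to 3.73 in shSTYK1 libraries (log2 fold change -2.83, limma adjusted p = 2.61e-05). The other 5 of 6 fibroblast markers are not in the table, the endothelial marker KDR was listed at 0.26, 0.54 and 0.44 against 0 in every shSTYK1 library, and none of 6 leukocyte markers is in it. The epithelial marker CDH1 was at 0.10, 0.27 and 0.28 in control libraries and at 0.94, 0.85 and 0.90 in shSTYK1 libraries. The part of these markers in the results was not tested.

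The 20 genes lie on 13 chromosomes, and 9 of them have another gene of the table within 250 kb. Of the 13 such pairs, 9 moved in the same direction by the mean z-score and 4 in opposite directions. The same share was not computed for other genes of the table. IGF2 lies 127642 bases from H19, the noncoding RNA of the same imprinted locus. H19 was at 53.91, 61.49 and 48.42 in control libraries and at 6.33, 7.56 and 4.55 in shSTYK1 libraries, a log2 fold change of -2.98 (SE 0.184 and adjusted p = 9.84e-06 by limma). Both genes of the locus therefore fell, although IGF2 is normally expressed from the paternal and H19 from the maternal allele, and the alleles were not measured.

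TNFSF9 lies 47255 bases from CD70, which encodes another ligand of the same superfamily. CD70 was at 85.77, 87.30 and 71.93 in control libraries and at 26.12, 33.17 and 24.76 in shSTYK1 libraries, a log2 fold change of -1.52 (SE 0.155 and adjusted p = 7.44e-05 by limma), close to that of TNFSF9. TUBB4A, a tubulin gene 28151 bases from TNFSF9, rose with a log2 fold change of 0.59 (limma, adjusted p = 0.0125), so the direction was not shared by all neighbours. BMPR1B lies 4056 bases from UNC5C, a netrin receptor gene at 1.35, 1.76 and 1.74 in control libraries and at 0.07, 0.03 and 0.03 in shSTYK1 libraries, which passed the filter through the control libraries alone. INHBE lies 57308 bases from DDIT3, a stress-response transcription factor gene that rose with a log2 fold change of 0.95 (limma, adjusted p = 0.000183). ARHGEF25, 150900 bases from INHBE, rose with 1.18 (limma, adjusted p = 0.000137). GLI1 lies closest, 855 bases from INHBE, and was at 3.34, 1.88 and 1.89 in control libraries and at 0.39, 1.05 and 6.77 in shSTYK1 libraries. Its groups overlapped, with a log2 fold change of -0.24 (limma, adjusted p = 0.691). IL1R1 and IL1RL1, 131628 bases apart, are among the pairs with opposite directions.

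**Figure D3:**
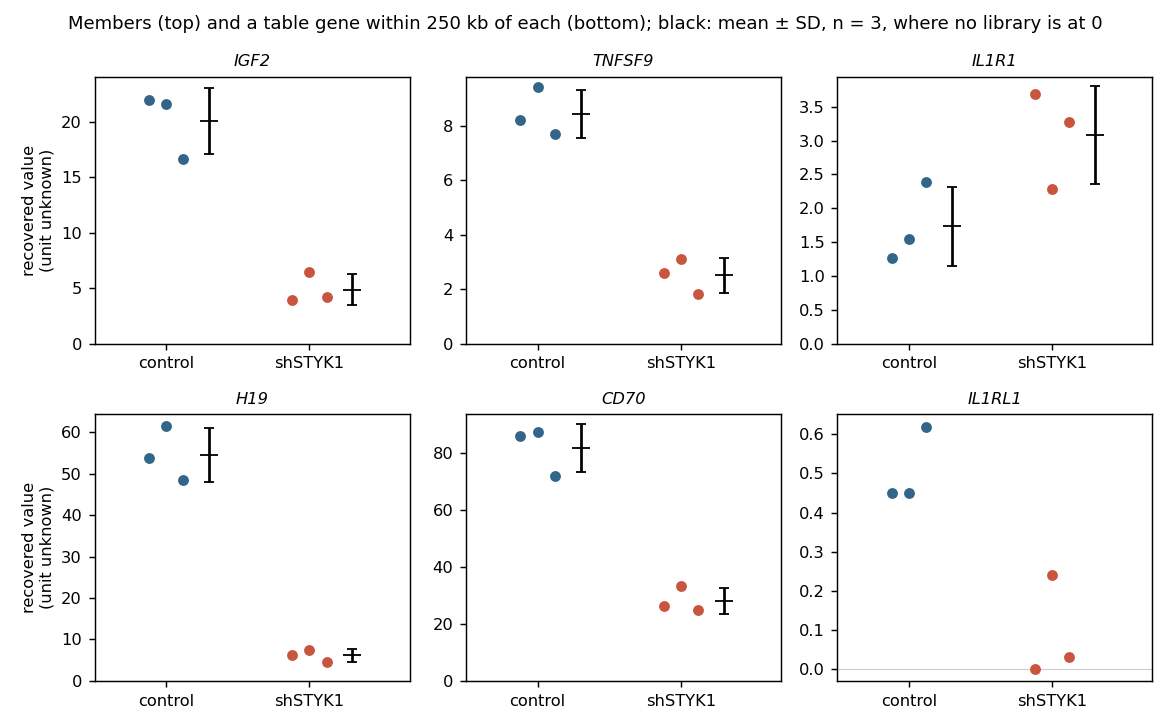
Recovered values (vertical axis, unit unknown) by library of 3 genes of the set (top) and a gene of the table within 250 kb of each (bottom), with the mean ± SD (n = 3) in black where no library is at 0. IGF2 and H19 fall together, as do TNFSF9 and CD70, while IL1R1 and IL1RL1 have opposite directions.

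Within the groups, the coefficient of variation of the 15 tested genes ranged from 3.43% for IGFBP7 to 49.9% for IL11 in control libraries, with a median of 14.8%. In shSTYK1 libraries it ranged from 3.97% for TNFRSF11A to 35.5% for FGF11, with a median of 23.5%. An absolute log2 fold change of at least 1 together with the adjusted p-value was reached by 7 falling genes (IGFBP7, FGFR2, INHBB, BMP5, IGF2, TNFSF9 and BMP4), against 31.8% of all genes tested, and by 2 rising genes (KITLG and CSF1), against 23.6%. Of the falling genes, FGFR2 and BMP5 passed the filter through the control libraries alone.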

How the data were processed

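Sequencing covered poly(A) RNA libraries of PANC-1 cells, 3 control and 3 shSTYK1. The authors deposited z-scores (a score per gene and library, 12 significant digits) of 995 genes. The submitters' processing notes name RSEM, DESeq2 and the builds GRCh38 and hg38, and the expression unit and logarithm are not given in the sources used here. The genes are read as those past the p-value threshold of the study, whose test and adjustment are not stated. Groups come from the sample titles.

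Values were recovered in Python 3.11.15 (numpy 2.4.6, numba 0.67.0, pandas 2.3.3) by testing values of 2 decimals, up to a value + 1 of 2000, until log(value + 1) matched the z-scores of all 6 libraries. It solved 994 genes, with recomputed scores within 5e-12. Addition of 1 before the logarithm is inferred, and a gene's value + 1 is known up to a whole-number factor and a power. The smallest solution was used, multiplied in 13 genes so that no value was below 0.

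The comparison used limma 3.58.1 (R 4.3.3) on log2(value + 1) over 740 genes that reached 1 in 3 or more libraries, which understates changes of low genes. Single values used an exact permutation test (scipy 1.17.1). The methods were tested on simulated data. Symbols and positions come from the name table and GENCODE 29, which locates 965 genes. Genes within the filter are described in every library, and up to 3 per direction of each pathway list. CD70, SMAD9, INSR, DUSP4, GDF15 and the neighbouring genes were described after their values were seen. The set and the lists were chosen with earlier results of these data known. Alternatives were other pseudocounts, scalings, filters and variance models, the replicate number as a block, each library left out, the z-scores themselves and a minimum fold. Plots were drawn with matplotlib 3.10.9.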

Additional observations from a re-analysis of the deposited data

How the results depend on the processing

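No tested gene of the set changed direction under an alternative. Leaving the minimum fold aside, 196 of 203 values of single genes kept their side of the adjusted p threshold. The exceptions are the values of IL1R1, TGFBR3 and IL11 given with those genes. The 203 values include those of BMP5 and FGFR2, which passed the filter through the control libraries alone. Their kept calls are therefore not evidence of stability. The count of genes of the set called lower, 9, was 6 of 8 with a filter of at least 5, 7 with a minimum absolute log2 fold change of 1, 10 with median-of-ratios scaling and 12 of 20 on the z-scores or with no filter. The count called higher, 5, was 3 with median-of-ratios scaling, 2 with a filter of at least 5, 2 with the minimum fold and 4 or 5 with each library left out in turn. Over all genes tested, 329 lower and 379 higher became 130 and 194 with a filter of at least 5, which tests 327 genes, and 235 and 175 with the minimum fold. Of all genes, 460 of 994 were called lower with no filter and 484 of 995 on the z-scores. With each library left out in turn, between 365 and 378 of all 740 genes tested were called higher. With the replicate number as a block, 9 genes of the set were lower and 5 higher, and 329 and 385 of all genes tested. Deviations of same-numbered libraries from their group means correlated by -0.225, 0.191 and 0.048 across genes, so the numbers were not treated as pairs. Depth is unknown, and the low values of BMPR1B, IL1RL1, IL2RG, INHBE and FGF5 cannot be given a detection limit.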
